A study of Mus musculus with 4 samples.

Results

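The immediate early response genes Fos, Fosb, Fosl2, Jun, Junb, Egr1, Nr4a1, Nr4a3, Atf3 and Ier2 were followed across 4 arrays of mouse epigonadal fat, the visceral pad beside the testis. They are 10 of the 22180 genes that the arrays measured with a probe of a single gene symbol, and each of them had 1 such probe, so no choice between probes entered their values. The set is a list of names drawn up with earlier results of these data known, and no threshold on a value decided who belongs to it. All mice were male and fasted, and total RNA of the tissue was hybridised to Affymetrix whole-transcript arrays, and each of the 4 genotypes had 1 array.

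LDKO mice carry floxed Irs1 and Irs2 with the Albumin-Cre transgene, and LTKO mice carry floxed Irs1, Irs2 and FoxO1 with the same transgene. Both Cre lines were 4 months old. The Irs1/2:FoxO1-flox control and the Irs1/2-flox control carry the floxed alleles without Cre, and their age is not given in the sources used here, so age and genotype cannot be told apart against either control. The albumin promoter drives Cre in hepatocytes, so the deletions are made in liver while the arrays read fat, and the labels leave unsaid if the RNA came from a single animal or from a pool. No group has a replicate, so every difference below is a description with no standard error and no p-value, and neighbouring levels cannot be said to differ beyond a spread. Values are RMA signals on the log2 scale, on which a difference of 1 is 2-fold, and signals of different probes are not set against each other. Of the 11 adipocyte markers measured, 11 lay at or above the median gene (5.15) in each array, with adiponectin (Adipoq) at 10.57 in LDKO and 10.35 in LTKO, against 10.48 (Irs1/2:FoxO1-flox) and 10.49 (Irs1/2-flox) in the controls.

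Immediate early genes are transcribed within minutes of a stimulus without new protein synthesis. Growth factors and insulin reach them through MAP kinases and serum response factor, and adrenergic and other cAMP signals reach them through protein kinase A and CREB. Their products are mostly transcription factors: Fos and Jun proteins pair into AP-1, Egr1 is a zinc finger factor, and Nr4a1 and Nr4a3 are orphan nuclear receptors. Their messengers are short-lived, and tissue handling, stress and injury are known to raise them in many tissues.

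Promoter sequence was taken from RefSeq on build GRCm38.p6 as the 250 bases before an annotated start, which the table holds for 8 of the 10 genes. It is shown for Fos, the founding member, for Junb, which was highest in LDKO, and for Fosl2, which with Nr4a3 was lowest in LDKO. Capitals mark matches, on either strand, to the cAMP response element (CRE) core TGACG or to the EGR site GCGGGGGCG.
Fos, chr12:85473640-85473889, plus strand: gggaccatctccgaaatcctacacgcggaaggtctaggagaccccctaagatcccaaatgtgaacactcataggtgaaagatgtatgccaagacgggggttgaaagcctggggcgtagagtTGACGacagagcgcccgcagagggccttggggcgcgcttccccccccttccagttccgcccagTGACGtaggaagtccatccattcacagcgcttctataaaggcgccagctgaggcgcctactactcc
Junb, chr8:84978749-84978998, minus strand: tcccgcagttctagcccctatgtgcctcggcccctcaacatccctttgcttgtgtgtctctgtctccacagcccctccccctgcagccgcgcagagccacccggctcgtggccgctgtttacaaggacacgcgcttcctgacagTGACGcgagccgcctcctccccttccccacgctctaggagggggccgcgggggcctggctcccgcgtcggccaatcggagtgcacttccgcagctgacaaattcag
Fosl2, chr5:32136222-32136471, plus strand: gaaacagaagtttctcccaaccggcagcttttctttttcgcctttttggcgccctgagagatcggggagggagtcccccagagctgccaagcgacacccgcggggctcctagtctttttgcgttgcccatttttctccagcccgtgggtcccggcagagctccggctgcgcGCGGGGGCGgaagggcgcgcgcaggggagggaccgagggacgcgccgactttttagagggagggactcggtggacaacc

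The CRE core TGACG was found in 6 of the 8 promoters, those of Fos, Fosb, Junb, Atf3, Nr4a1 and Nr4a3, and in 17.8% of all 32851 promoters in the table. Nr4a1 and Nr4a3 each held 4 matches, a number reached by 0.137% of all promoters. In Nr4a3 a pair of them lies within 23 bases, from 231 to 209 bases before the start, and is shown because Nr4a3 differed most between the arrays.
Nr4a3, chr4:48045074-48045096, plus strand: TGACGtagcgtcccatgtCGTCA
The EGR site was found in the promoters of Fosb, Fosl2 and Nr4a1 and in 2.57% of all promoters. The full CRE TGACGTCA, which contains the core, the AP-1 site TGANTCA and the CArG box that serum response factor binds were found in none of the 8 windows, and in 1.55%, 6.75% and 1.47% of all promoters. For Fosb, Nr4a1 and Nr4a3 the annotated start lies inside the span of the gene, so an upstream start of the same gene is annotated too. For Nr4a3 the outer edge of the gene, base 48045078, falls inside the printed pair, and most of the window lies within the gene. A match is a run of letters and was not tested as a binding site. The search covered these windows and these patterns only, so elements further upstream or with other letters were not read. The Jun window, for example, holds TGACATCA, which none of the patterns matches. Egr1 and Ier2 had no promoter in the table. The map of motif matches shows their distances from the start.

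**Figure D1:**
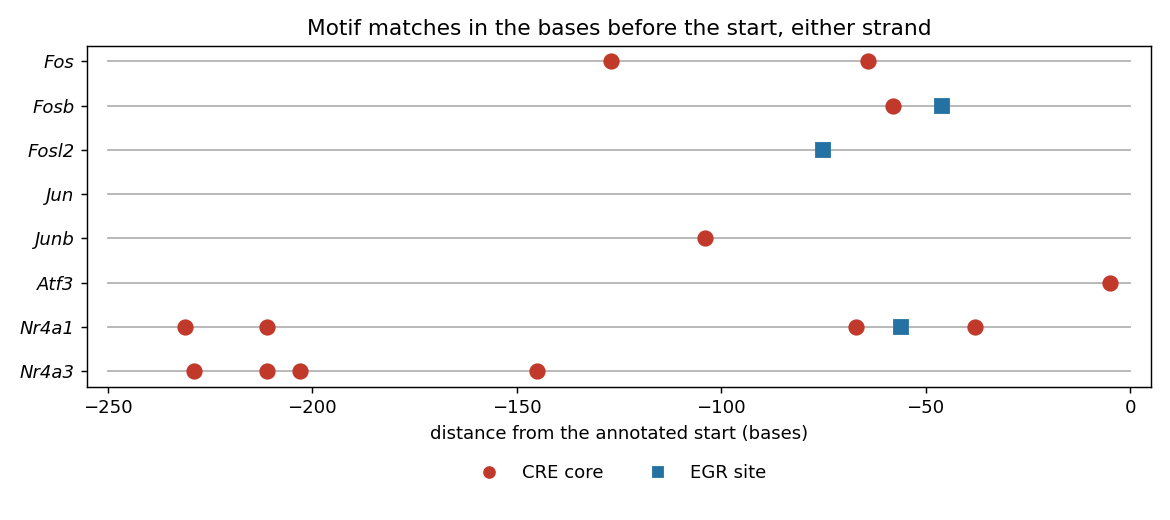
Motif matches in the 250 bases before the annotated start of 8 immediate early genes. The horizontal axis is the distance from the start in bases, red circles are CRE cores (TGACG) and blue squares are EGR sites, both on either strand; Nr4a1 and Nr4a3 hold 4 CRE cores each, Fos 2, and Jun no match.

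Among the Fos proteins, which need a Jun partner to bind DNA, Fos itself was 5.52 in LDKO and 5.92 in LTKO, against 5.19 (Irs1/2:FoxO1-flox) and 6.05 (Irs1/2-flox) in the controls. Fosb, a close relative of Fos, was 5.43 in LDKO and 5.14 in LTKO, against 4.93 (Irs1/2:FoxO1-flox) and 5.46 (Irs1/2-flox) in the controls. Both genes were thus lowest in one control and highest in the other, with the Cre lines between them. Fosl2, also called Fra-2, a Fos family member that is induced more slowly than Fos, was 7.16 in LDKO and 7.71 in LTKO, against 7.51 (Irs1/2:FoxO1-flox) and 8.07 (Irs1/2-flox) in the controls. It was below both controls in LDKO and between them in LTKO.

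Of the Jun proteins, Jun, the main partner of Fos in AP-1, was 7.66 in LDKO and 8.13 in LTKO, against 7.54 (Irs1/2:FoxO1-flox) and 8.21 (Irs1/2-flox) in the controls. It followed the order of Fos across the 4 arrays. Once each gene was centred on its own mean, Fos and Jun were never more than 0.13 apart on any array. Junb, which often restrains the activity of Jun, was 6.35 in LDKO and 6.15 in LTKO, against 6.004 (Irs1/2:FoxO1-flox) and 6.03 (Irs1/2-flox) in the controls. Junb was above both controls in both Cre lines, and the controls differed by only −0.02.

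Atf3, a stress-induced factor of the CREB and ATF family, was 5.86 in LDKO and 5.62 in LTKO, against 5.32 (Irs1/2:FoxO1-flox) and 5.86 (Irs1/2-flox) in the controls. Centred on their own means, Atf3 and Fosb differed by at most 0.0565 on any array, the closest pair among the 10 genes. Egr1 was 5.66 in LDKO and 5.78 in LTKO, against 5.02 (Irs1/2:FoxO1-flox) and 5.48 (Irs1/2-flox) in the controls. Egr1 and Junb were the 2 genes above both controls in both Cre lines, a place held by 10.4% of the 11090 genes in the brighter part of the table, those whose mean reached the median gene.

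Nr4a1, also called Nur77, a nuclear receptor induced by adrenergic signals in fat, was 6.56 in LDKO and 6.72 in LTKO, against 6.30 (Irs1/2:FoxO1-flox) and 6.83 (Irs1/2-flox) in the controls. Nr4a1 had the same order of arrays as Fos and Jun. Its relative Nr4a3, also called NOR-1, was 6.16 in LDKO and 6.61 in LTKO, against 6.63 (Irs1/2:FoxO1-flox) and 7.64 (Irs1/2-flox) in the controls. Nr4a3 was the 1 member whose 4 arrays spanned at least 2-fold, against 3.40% of the same 11090 genes. Its range of 1.48 was larger than that of 99.0% of those genes, and the high end was the Irs1/2-flox control array alone. Ier2, a nuclear protein of the immediate early response, was 5.07 in LDKO and 5.17 in LTKO, against 5.10 (Irs1/2:FoxO1-flox) and 5.03 (Irs1/2-flox) in the controls. It was the flattest of the 10 genes, with a range of 0.145, and the only one with a mean below the median gene, where RMA compresses differences.

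**Figure D2:**
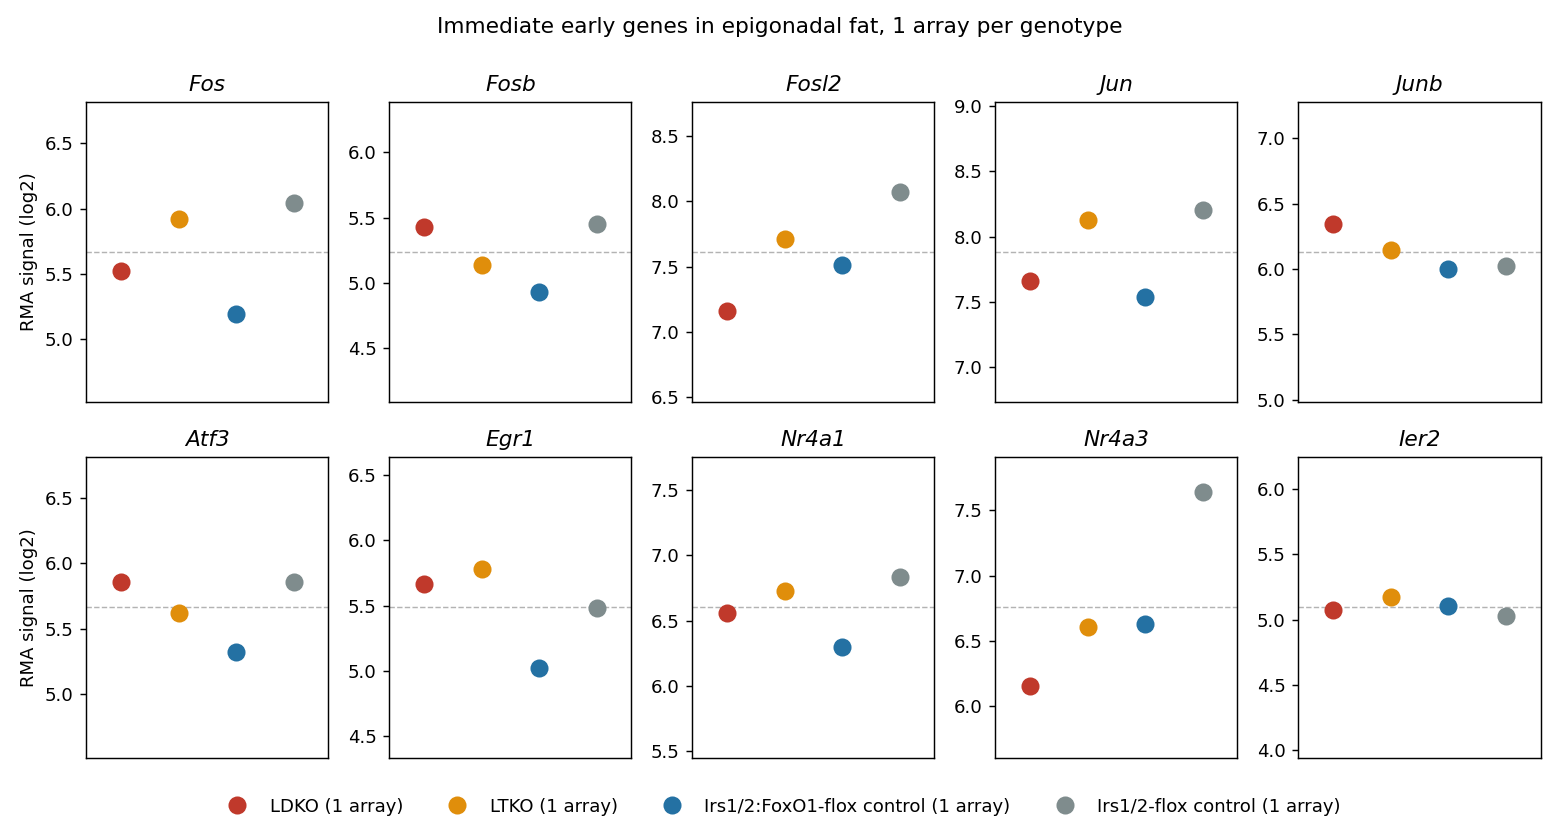
RMA signal (log2) of the 10 immediate early genes, 1 panel per gene and 1 point per array, from left to right LDKO, LTKO, the Irs1/2:FoxO1-flox control and the Irs1/2-flox control; the dashed line is the mean over the 4 arrays, and all panels span the same number of log2 units. Nr4a3 at 7.64 in the Irs1/2-flox control stands apart from its other 3 arrays, and 7 of the 10 genes are lowest in the Irs1/2:FoxO1-flox control.

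In LDKO, set against the control with the same floxed genes, Nr4a3 was 2.79-fold lower and Fosl2 1.88-fold lower than in the Irs1/2-flox control. Jun differed by −0.54, Fos by −0.53 and Nr4a1 by −0.27, while Fosb (−0.03), Atf3 (0.00), Ier2 (0.04), Egr1 (0.18) and Junb (0.32) were level or higher. Nr4a3 was thus the 1 member at least 2-fold apart, where 1.20% of the 11533 genes past the filter were, and 2 members were at least 1.5-fold apart, where 6.74% of genes were. The filter asked that the higher of the arrays compared be at the median gene or above it, which Ier2 was not, and all 10 members are counted here. In all, 6 of the 10 were lower, against 56.7% of genes, and the median over the 10 was −0.15, against −0.05 over all genes. Over the 4 brightest members, Fosl2, Jun, Nr4a1 and Nr4a3, which are those past the 70th percentile gene, the median was −0.73, and the mean over the 10 was −0.32.

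Against the Irs1/2:FoxO1-flox control the same LDKO array gave other directions. Egr1 was 1.56-fold higher, followed by Atf3 at 0.53, Fosb at 0.49, Junb at 0.34, Fos at 0.33, Nr4a1 at 0.26 and Jun at 0.12. Nr4a3 at −0.47 and Fosl2 at −0.35 were lower again, and Ier2 differed by −0.03. No member was 2-fold apart, where 1.31% of 11489 genes were, and 1 was at least 1.5-fold apart, where 7.04% were. The 7 higher members compare with 39.8% of genes, and the median was 0.30, against −0.07 over all genes. The direction turned over the 4 brightest members, whose median was −0.11 with 2 higher and 2 lower, and the mean over the 10 was 0.19. Relative to the pair of controls, 3 members lay above both in LDKO, 5 between them and 2 below both. For the 11090 brighter genes these shares were 26.5%, 28.6% and 45.0%.

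In LTKO, set against its own Irs1/2:FoxO1-flox control, Egr1 was 1.69-fold, Fos 1.65-fold and Jun 1.51-fold higher. Nr4a1 was higher by 0.43, Atf3 by 0.30, Fosb by 0.21, Fosl2 by 0.20, Junb by 0.15 and Ier2 by 0.07, and Nr4a3 differed by −0.02. In all, 9 of the 10 genes were higher, against 42.8% of 11533 genes, with a median of 0.25, against −0.03 over all genes. None was 2-fold apart, where 1.78% of genes were, and 3 were at least 1.5-fold apart, where 4.41% were. Fosb did not reach the median gene in this comparison and is counted all the same. In the Irs1/2:FoxO1-flox control Egr1 (5.02) lay below the median gene (5.15) and Fos (5.19) close to it.

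Against the Irs1/2-flox control, by contrast, LTKO was lower at 7 of the 10 genes, against 48.1% of 11612 genes, and the median was −0.12, against 0.01 over all genes, and −0.23 over the 4 brightest members. Nr4a3 was 2.04-fold lower, the 1 member past 2-fold, where 1.24% of genes were, and it was also the 1 member past 1.5-fold, where 5.01% were. Fosl2 differed by −0.36, Fosb by −0.32, Atf3 by −0.23, Fos by −0.13, Nr4a1 by −0.11 and Jun by −0.08. Egr1 (0.29), Ier2 (0.15) and Junb (0.12) were higher. In LTKO 3 members lay above both controls, 6 between them and 1 below both, where the shares of all genes were 26.9%, 39.5% and 33.6%.

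**Figure D3:**
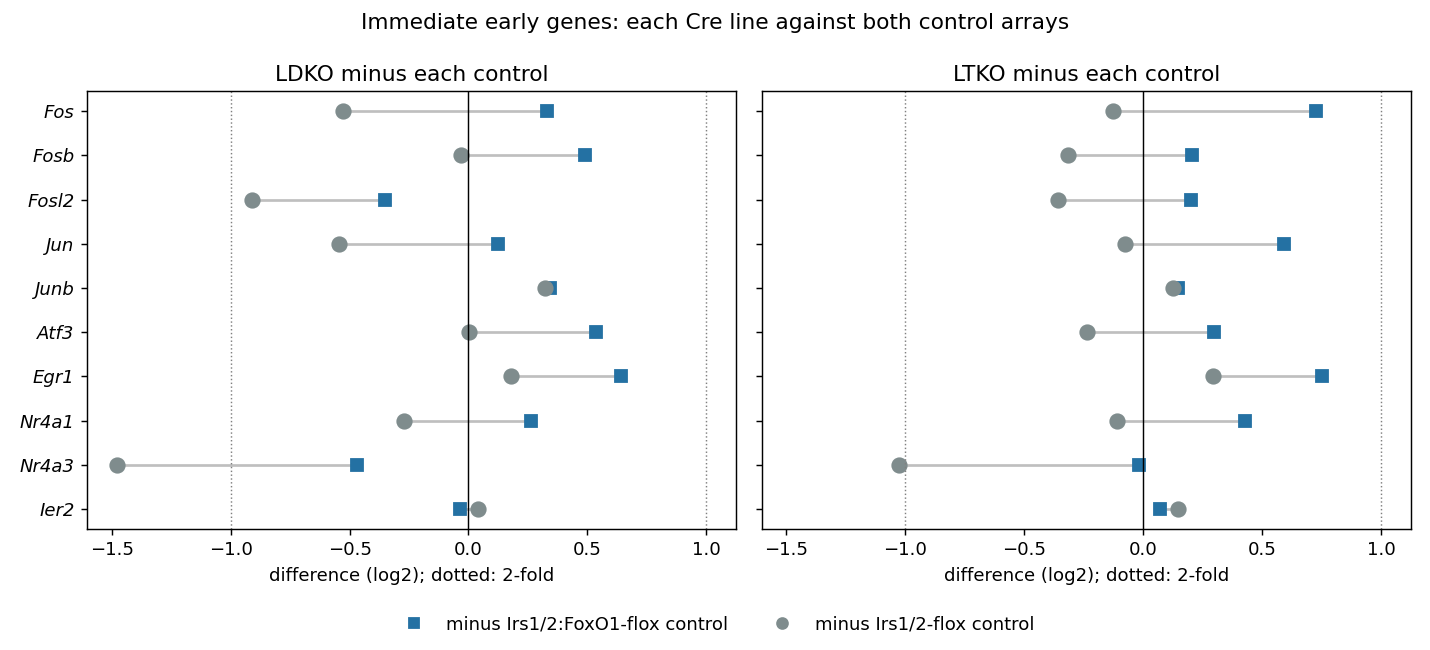
Difference in log2 signal of each immediate early gene in LDKO (left) and LTKO (right) from the Irs1/2:FoxO1-flox control (blue squares) and from the Irs1/2-flox control (grey circles), with a line joining the 2 values of a gene and dotted lines at 2-fold. For Fos, Fosb, Jun and Nr4a1 the 2 values lie on opposite sides of 0 in both Cre lines, whereas Junb and Egr1 stay above 0 and Nr4a3 below it.

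The direction was the same from both controls for 5 of the 10 genes in LDKO, where 71.4% of the 11090 brighter genes lay outside both controls, and for 4 of the 10 in LTKO, where 60.5% did. Egr1 was higher in LDKO by 0.64 and 0.18 and in LTKO by 0.75 and 0.29, each time from the Irs1/2:FoxO1-flox control and then from the Irs1/2-flox control. Junb was higher in LDKO by 0.34 and 0.32 and in LTKO by 0.15 and 0.12 in the same order. Nr4a3 was lower in LDKO by 0.47 and 1.48 log2 units, and Fosl2 was lower there by 0.35 and 0.91. For Atf3 in LDKO (0.53 and 0.00), Ier2 in LTKO (0.07 and 0.15) and Nr4a3 in LTKO (−0.02 and −1.03) the sign was also the same from both controls, but 1 value of each pair was within 0.1 of 0. These values share the LDKO or the LTKO array within each pair, so the second of a pair is not a separate check of the first.

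LTKO set directly against LDKO had no member 1.5-fold apart, where 7.98% of 11660 genes were, and none 2-fold apart, where 2.11% were. Fosl2 was higher by 0.55, Jun by 0.47, Nr4a3 by 0.45 and Fos by 0.40, and Nr4a1, Egr1 and Ier2 by 0.16, 0.11 and 0.11. Fosb differed by −0.29, Atf3 by −0.24 and Junb by −0.20. The 7 higher members compare with 57.4% of genes, and the median was 0.14, against 0.05 over all genes, and 0.46 over the 4 brightest members. These values hold any difference between the floxed lines as well.

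The arrays without Cre differed from each other at these genes by more, in the median, than either Cre line did from a control, when all 10 are counted. Over the 4 brightest members the order turned, with a median of −0.73 for LDKO from the Irs1/2-flox control and −0.61 between the controls. The Irs1/2:FoxO1-flox control was lower than the Irs1/2-flox control at 9 of the 10 genes, against 44.5% of 11432 genes, with a median of −0.53, against 0.03 over all genes. Nr4a3 was 2.01-fold, Fos 1.81-fold and Jun 1.59-fold lower. Fosl2 differed by −0.56, Atf3 and Nr4a1 by −0.53, Fosb by −0.52, Egr1 by −0.46 and Junb by −0.02, and Ier2 was higher by 0.07. One member was 2-fold apart, where 0.770% of genes were, and 3 were at least 1.5-fold apart, where 4.55% were. Across the 4 arrays, 7 members had their lowest value in the Irs1/2:FoxO1-flox control, where 17.5% of genes did, and 6 had their highest in the Irs1/2-flox control, where 24.2% did. The cause of this gap between the controls was not tested. The floxed FoxO1 alleles, the animal, its handling and the array cannot be told apart.

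Other signals also differed between the controls, in both directions. In the Irs1/2:FoxO1-flox control 8 of 8 endothelial, 5 of 7 stromal progenitor and 7 of 11 adipocyte markers were higher, where 55.5% of genes were. Their medians were 0.15, 0.20 and 0.05, against 0.03 over all genes. The adipocyte count was thus near the share of all genes, and the endothelial markers Pecam1 and Kdr were level (0.00 each). The summed linear signal of 12 skeletal muscle markers was 526 in LDKO and 641 in LTKO, against 650 (Irs1/2:FoxO1-flox) and 1144 (Irs1/2-flox) in the controls. Of them 12 of the 12 were lower in the Irs1/2:FoxO1-flox control than in the Irs1/2-flox control, where 44.5% of genes were. Only 8 of the 12 passed the filter there, and only 6 in each comparison of a Cre line with the Irs1/2:FoxO1-flox control. All 12 are counted here. Acta1 was the brightest in each array and weighs most in these sums. From the Irs1/2:FoxO1-flox control 7 of the 12 were higher in LDKO (median 0.09, 39.8% of genes higher). In LTKO 3 of the 12 were higher (median −0.10, 42.8% of genes higher). The sum of 12 mesothelial markers, genes of the membrane over the pad, was 1619 in LDKO and 1812 in LTKO, against 1777 (Irs1/2:FoxO1-flox) and 2865 (Irs1/2-flox) in the controls, with 11 of 12 lower between the controls. The 12 macrophage markers summed to 3951 in LDKO and 3509 in LTKO, against 4358 (Irs1/2:FoxO1-flox) and 5028 (Irs1/2-flox) in the controls. For the 10 immediate early genes the sums were 824 in LDKO and 1000.1 in LTKO, against 784 (Irs1/2:FoxO1-flox) and 1187 (Irs1/2-flox) in the controls. Jun and Fosl2 were the brightest of the 10 in each array and weigh most there, so these sums say little of the dim members. Between LTKO and the Irs1/2:FoxO1-flox control, where 9 of the 10 genes were higher in LTKO, the muscle sums were 641 and 650 and the mesothelial sums 1812 and 1777. The mesothelial markers went both ways there, with 5 higher and 7 lower in LTKO and a median of −0.18. The epithelial cadherin Cdh1 was higher by 1.26, and the keratins Krt8 and Krt18 of simple epithelia by 0.91 and 0.84, while Lrrn4 differed by −0.65. The other keratins on the list, Krt19 and Krt7, differed by 0.19 and −0.34. Cdh1 was thus at least 2-fold higher, where 1.78% of genes were 2-fold apart. At least 1.5-fold higher were 3 of the 12, and 1 was at least 1.5-fold lower, where 4.41% of genes were 1.5-fold apart. Msln (−0.31), Upk1b (−0.23), Upk3b (−0.19), Wt1 (−0.18) and Muc16 (−0.18) were lower in LTKO there, and Gpm6a was level (0.00). Cdh1, Krt8 and Krt18, like 7 of the 10 immediate early genes, were lowest in the Irs1/2:FoxO1-flox control. The other mesothelial markers were not. In that comparison 9 epididymis markers summed to 773 in LTKO and 148 in the Irs1/2:FoxO1-flox control, with 155 in LDKO and 158 in the Irs1/2-flox control. RMA gives no value of 0, so markers are read against the median gene: 6 of the 9 epididymis markers reached it in LTKO and 0 in each of the other arrays. The part of these tissues in the values of the immediate early genes was not tested. In a bulk tissue array, fewer cells of a type and less RNA per cell cannot be told apart.

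Heat shock genes, whose products refold proteins and which are raised by stress, were lower at 7 of 8 in the Irs1/2:FoxO1-flox control than in the Irs1/2-flox control, with a median of −0.30, where 44.5% of genes were lower. Hsph1 differed by −0.87 and Hspa1a by −0.58. In LDKO against the Irs1/2-flox control the median was −0.37, with Hspa1a at −0.65 and Hsph1 at −0.60, and against the Irs1/2:FoxO1-flox control it was −0.01. In LTKO it was 0.09 against the Irs1/2:FoxO1-flox control, with Hsph1 at 0.88 and Hspa1a at −0.39, and −0.18 against the Irs1/2-flox control. No heat shock gene was 2-fold apart in these comparisons, where 0.770% to 1.78% of genes were.

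The wider response was read from 43 other immediate early genes, all measured. In LDKO 34 of the 43 were lower than in the Irs1/2-flox control, against 56.7% of the 11533 genes, with a median of −0.21, against −0.05 over all genes. At least 2-fold apart were 2 of them, Gadd45g and Thbs1, both lower, where 1.20% of genes were 2-fold apart. Gadd45g, a stress and growth arrest gene, was 7.20 in LDKO and 7.85 in LTKO, against 8.50 (Irs1/2:FoxO1-flox) and 8.49 (Irs1/2-flox) in the controls. The controls were level here, and LDKO was lower by 1.30 from each of them and LTKO by 0.65 and 0.64. Cebpd, a factor of early adipocyte differentiation, was 6.02 in LDKO and 6.31 in LTKO, against 6.76 (Irs1/2:FoxO1-flox) and 6.94 (Irs1/2-flox) in the controls. Both genes were thus below both controls in both Cre lines, and neither followed the order of Fos and Jun.

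Further genes of this group differed in which arrays were high and low. Ccn1, a matrix protein and target of serum response factor and YAP, was 8.01 in LDKO and 8.86 in LTKO, against 7.84 (Irs1/2:FoxO1-flox) and 8.56 (Irs1/2-flox) in the controls. In LTKO it was 1.02 above the Irs1/2:FoxO1-flox control, the only one of the 43 at least 2-fold apart there, where 1.78% of 11533 genes were. Thbs1, thrombospondin 1, was 9.09 in LDKO and 9.64 in LTKO, against 9.63 (Irs1/2:FoxO1-flox) and 10.22 (Irs1/2-flox) in the controls, the same order of the highest and the lowest array as Nr4a3. Csrnp1, a nuclear protein induced by axin, was 4.51 in LDKO, against 5.13 to 5.25 in the remaining arrays. Zfp36, the mRNA-destabilising protein tristetraprolin, was 7.73 in LDKO and 8.48 in LTKO, against 8.28 (Irs1/2:FoxO1-flox) and 8.36 (Irs1/2-flox) in the controls. Tnfaip3, an inhibitor of NF-kappa-B signalling, differed by −0.76 in LTKO from the Irs1/2-flox control.

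Over the 43 genes the medians were 0.02 for LDKO against the Irs1/2:FoxO1-flox control, with 22 higher and 21 lower (39.8% of genes higher), 0.03 for LTKO against the same control, with 23 higher and 20 lower (42.8% of genes higher), and −0.09 for LTKO against the Irs1/2-flox control, with 14 higher and 29 lower (48.1% of genes lower). Between the controls 30 of the 43 were lower in the Irs1/2:FoxO1-flox control, against 44.5% of genes, with a median of −0.13, beside −0.53 for the 10 genes and 0.03 for all genes. Of the 43, 19 were lowest in LDKO, where 38.7% of the 11090 brighter genes were, and 14 in the Irs1/2:FoxO1-flox control, where 17.5% were. The highest array was the Irs1/2-flox control for 21 of the 43, against 24.2% of genes.

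Of 13 measured relatives of the same families, none was 2-fold apart in any comparison with a control, where 0.770% to 1.78% of genes were. Only 8 or 9 of the 13 passed the filter in these comparisons. Jund, the third Jun protein, was 7.38 in LDKO and 7.47 in LTKO, against 6.98 (Irs1/2:FoxO1-flox) and 7.46 (Irs1/2-flox) in the controls by its brighter probe, while its dimmer probe lay between 5.31 and 5.58 with the Irs1/2-flox control lowest. Jdp2, a repressor that pairs with Jun, was 6.48 in LDKO and 6.58 in LTKO, against 6.09 (Irs1/2:FoxO1-flox) and 6.68 (Irs1/2-flox) in the controls. Jdp2 and the brighter Jund probe were, like 7 of the 10 genes, lowest in the Irs1/2:FoxO1-flox control. Nr4a2, the third receptor of the Nr4a family, was 5.67 in LDKO and 5.46 in LTKO, against 5.82 (Irs1/2:FoxO1-flox) and 6.07 (Irs1/2-flox) in the controls. It was below both controls in both Cre lines, with LTKO lowest. Egr2, a relative of Egr1, was 5.24 in LDKO, against 4.84 to 4.97 in the remaining arrays, and Ier3 ran from 5.81 in LDKO up to 6.29 in the Irs1/2-flox control. Atf4, the main factor of the integrated stress response, was 7.35 in LDKO and 7.71 in LTKO, against 7.99 (Irs1/2:FoxO1-flox) and 7.58 (Irs1/2-flox) in the controls.

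**Figure D4:**
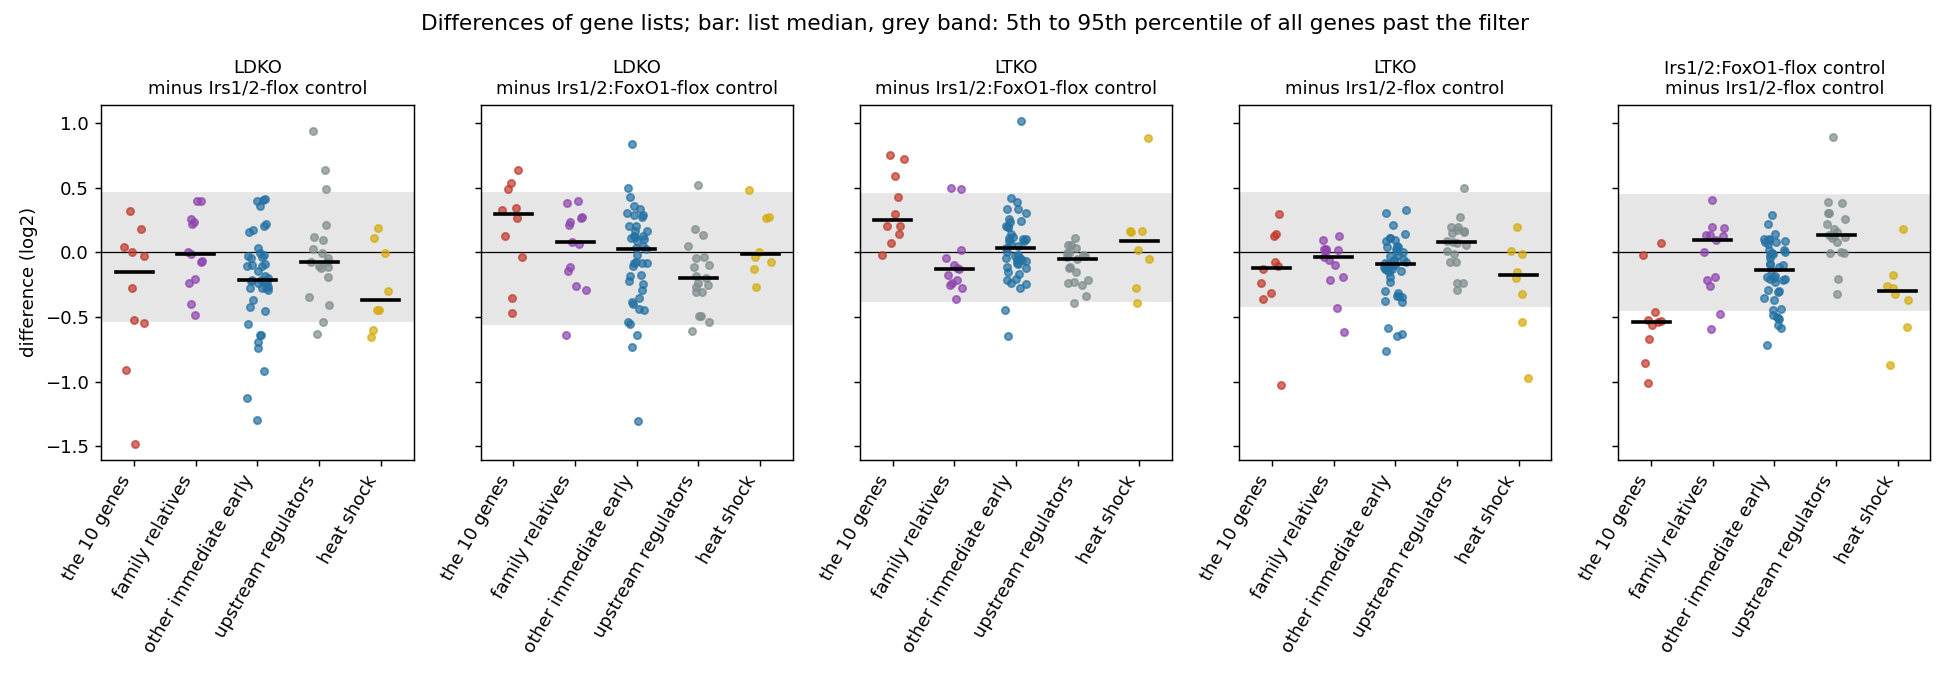
Differences in log2 signal for the 10 immediate early genes, 13 family relatives, 43 other immediate early genes, 19 upstream regulators and 8 heat shock genes, 1 point per gene; black bars are list medians and the grey band runs from the 5th to the 95th percentile of all genes past the filter. The median of the 10 genes is −0.15, 0.30, 0.25, −0.12 and −0.53 from the left panel to the right.

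Of the genes upstream of the response, 14 of 19 were higher in the Irs1/2:FoxO1-flox control than in the Irs1/2-flox control, against 55.5% of the 11432 genes, with a median of 0.13, against 0.03 over all genes. None of the 19 was 2-fold apart in any comparison with a control, where 0.770% to 1.78% of genes were. Prkaca, the catalytic subunit of protein kinase A, was 9.49 in LDKO and 9.05 in LTKO, against 9.44 (Irs1/2:FoxO1-flox) and 8.55 (Irs1/2-flox) in the controls by its brighter probe, while its dimmer probe lay between 4.24 and 4.43 in all arrays. Prkaca was thus lowest in the array in which Nr4a3, Fos, Jun and Fosl2 were highest. Crem, a cAMP-responsive factor, was 5.46 in LDKO and 5.80 in LTKO, against 5.77 (Irs1/2:FoxO1-flox) and 6.09 (Irs1/2-flox) in the controls, with its lowest and highest arrays the same as those of Nr4a3. Of the CREB coactivators, Crtc2 was 7.01 in LDKO and 7.29 in LTKO, against 7.62 (Irs1/2:FoxO1-flox) and 7.36 (Irs1/2-flox) in the controls, and Crtc3 was 6.62 in LDKO, against 6.93 to 7.16 in the remaining arrays. Both were lowest in LDKO. Rps6ka3, a kinase that phosphorylates CREB downstream of MAP kinases, was 9.49 in LDKO, against 8.85 to 8.97 in the remaining arrays. Serum response factor itself, Srf, lay between 6.96 and 7.19.

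The genes most like the set were found among 10588 others of the brighter genes, predicted genes left out, by the largest gap on any array between profiles centred on their own means. Nearest to Fos were the chloride channel Cftr (largest gap 0.0427), the membrane linker Ezr (0.0633), the receptor Kit (0.0644), Ttll7 (0.0758) and the ciliary protein Cep290 (0.0805). Nearest to the median profile of the 10 genes were Ccn2 (0.0258), also a target of serum response factor and YAP, followed by Gsap (0.0467), Jdp2 (0.0599), the adenylyl cyclase Adcy5 (0.0618) and Ttc30b (0.0645). With 4 arrays many genes share a profile, and likeness here is a description only. The second probe of Ccn2, dim at 3.76 to 4.08, did not follow its brighter one.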

How the data were processed

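The deposited log2 values are RMA signals from Affymetrix Expression Console, per the submitters' processing notes; RMA corrects background, quantile-normalizes arrays and summarises probes, so it removes a shift of all genes and compresses dim ones. Versions and build were not given in the sources used here. Of 41345 probes, 23521 have 1 gene symbol, 1814 several, and 16010 have no name here; current symbols came from GRCm38.p6 by gene identifier. A gene was its brightest single-symbol probe (22180 genes). Array medians ran from 4.68 to 4.73, and Pearson's r across genes between arrays from 0.986 to 0.991.

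Differences were taken between arrays, with 1 array per group and no test. Genes counted as called at 2-fold, or 1.5-fold, where the higher array reached the median gene (5.15). Of 191 list entries in 14 lists, 181 were measured. The members and lists were chosen with earlier results of these data known. Named were all members, up to 4 genes per pathway list and comparison by size of difference, the 5 genes nearest to Fos and to the median profile, and genes a result turns on. Srf, Adipoq, Acta1, the mesothelial markers named and the second probes were added after values were seen. Endothelial and stromal progenitor markers, read as well, had medians between controls of 0.15 and 0.20. Liver and sperm markers had medians of 1.10 and 2.08 in LTKO against its control. Steps were tested on simulated data. Python 3.11.15, numpy 2.4.6, pandas 2.3.3, statsmodels 0.14.6 and matplotlib 3.10.9 were used.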

Additional observations from a re-analysis of the deposited data

Results flagged for a closer look

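Members whose LDKO and LTKO differences, each from the control with the same floxed genes, had opposite signs are given here, with lower values in LDKO and higher values in LTKO. The LTKO difference minus the LDKO difference was 1.25 for Fos, 1.13 for Jun, 1.11 for Fosl2, 0.70 for Nr4a1 and 0.23 for Fosb. Nr4a3 had a larger value, 1.46, but its differences were both negative (−1.48 in LDKO and −0.02 in LTKO). With 1 array per group these values were not tested, and each of them also holds the difference between the control arrays. Fosb was lower in LTKO than in LDKO (−0.29), so its 0.23 has the opposite sign to the direct difference.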

How the results depend on the processing

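No paired analysis was possible because each group has 1 array. Quantile normalization of the 4 columns again kept the direction of 60 of 60 member differences, with shifts of at most 0.0777, and the removal of a loess curve kept 59 of 60, with shifts of at most 0.112. Taking the mean of all probes moved none, since each member has 1 probe. For single members the choice of control moved more than scaling did, with 9 of 20 directions kept against the other control and 17 of 20 against the mean of both. Medians over the 10 genes moved with the choice of control and with the filter, which at the 70th percentile gene keeps 4 members. The LDKO median of −0.15 from the Irs1/2-flox control was −0.000765 from the mean of both controls and 0.30 from the other control, −0.27 over members past the filter and −0.73 over those past the 70th percentile gene, −0.32 as a mean, and between −0.27 and −0.0294 with each member left out in turn. The LDKO median of 0.30 from the Irs1/2:FoxO1-flox control was −0.11 over members past the 70th percentile gene and 0.19 as a mean. The LTKO median of 0.25 from the Irs1/2:FoxO1-flox control was 0.12 from the mean of both controls and −0.12 from the other control. The LTKO median from the Irs1/2-flox control was −0.23, and that of LTKO minus LDKO was 0.46, over members past the 70th percentile gene. The count of members 2-fold apart in LDKO, 1 from its own control, was 0 from the other control and 0 from the mean of both, and in LTKO it was 0 from its own control and 1 from the other. At 1.5-fold the counts were 2 for LDKO and 3 for LTKO from their own controls, 1 for LDKO from the Irs1/2:FoxO1-flox control and 3 between the controls. The median between the controls, −0.53, and its count at 2-fold moved under no alternative of scaling, filter or left-out member, though over the 4 members past the 70th percentile gene LDKO differed from the Irs1/2-flox control by more. A median counts here as moved by 0.1 or more. Precision is limited by the number of arrays, and Ier2 and Fosb, near the median gene, have differences that RMA compresses. The same holds for Egr1 and Fos against the Irs1/2:FoxO1-flox control, where they were 5.02 and 5.19.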
